A study of Mus musculus with 20 samples.

Results

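The genes described here are 10 members of TGF-beta and activin signalling: the ligand genes Inhba, Inhbb, Tgfb1, Tgfb2 and Tgfb3, the receptor genes Tgfbr1 and Tgfbr2, and the intracellular genes Smad2, Smad3 and Smad7. They were found by matching the Ensembl identifiers of an exon count table, without their version, to mouse gene symbols. The 10 genes are 10 of 78258 identifiers in the table, and all 10 were among the 28564 genes with enough counts to be tested.

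The study sequenced mRNA of dorsal root ganglia (DRG), where the cell bodies of sensory neurons lie, at lumbar levels 4 to 6 of 10 male mice. Conditional knockout (cKO) mice carried Ahr fl/fl and Thy1CRE-ERT2/EYFP, and controls carried Ahr f/f or f/+ with no Cre named. Ahr encodes the aryl hydrocarbon receptor, and the Thy1 promoter limits the tamoxifen-activated Cre to cells that use it, so other cells of the ganglion keep the gene. Every mouse, cKO or control, was given tamoxifen for 5 days at 17 weeks of age, at 100 mg/kg a day. At 4 weeks after tamoxifen the sciatic nerve was cut, and ganglia were taken 1 day later from the cut side (ipsilateral) and from the other side (contralateral) of each mouse. That makes 4 groups of 5 libraries: control contralateral, control ipsilateral, cKO contralateral and cKO ipsilateral. A label field names a spinal cord injury, whereas the protocol describes the nerve transection, which is followed here; sample titles call the controls wildtype although they carry floxed alleles. The contralateral ganglia come from mice that also had the lesion, so they are not ganglia of an intact mouse.

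TGF-betas and activins are secreted dimers that bind a type II receptor, which then phosphorylates a type I receptor. The active type I receptor phosphorylates SMAD2 and SMAD3, which join SMAD4 and enter the nucleus, while SMAD7 is an inhibitory SMAD that is itself induced by the pathway and blocks the receptor. In sensory ganglia activin is known to induce the neuropeptide CGRP, and TGF-beta acts on Schwann cells and fibroblasts of injured nerve.

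The 250 bases upstream of the start of Inhba and Inhbb are shown because these 2 activin subunit genes had the largest injury responses of the 10. They are from RefSeq (build GRCm38.p6), written 5′ to 3′ on the gene's own strand. Inhba lies on the plus strand and its sequence is chr13:16011601-16011850. Inhbb lies on the minus strand and its sequence is chr1:119422249-119422498. Capitals mark a match to any of the 4 short motifs named after the sequences.
Inhba: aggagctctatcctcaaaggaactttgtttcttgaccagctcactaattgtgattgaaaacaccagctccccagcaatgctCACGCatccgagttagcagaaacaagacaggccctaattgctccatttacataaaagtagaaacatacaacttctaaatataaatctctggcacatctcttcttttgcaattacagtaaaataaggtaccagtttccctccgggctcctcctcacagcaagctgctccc
Inhbb: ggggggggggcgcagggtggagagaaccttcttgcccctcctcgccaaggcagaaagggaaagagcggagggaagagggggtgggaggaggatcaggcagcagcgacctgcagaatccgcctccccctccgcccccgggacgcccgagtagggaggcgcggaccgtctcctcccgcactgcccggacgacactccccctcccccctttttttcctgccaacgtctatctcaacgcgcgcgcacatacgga

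The promoter table held 7 of the 10 genes in 8 windows of 300 bases, from 250 before to 50 after the start, since Tgfbr1 had 2 starts; Tgfb3, Smad2 and Smad7 had no window. The motifs, sought on both strands, were the AP-1 site TGANTCA, the CRE TGACGTCA, the SMAD box CAGACA and the core GCGTG of the element bound by the aryl hydrocarbon receptor (XRE). Of 32851 promoter windows of the same length, 7.81% held the AP-1 letters, 1.79% the CRE, 21.0% the SMAD box and 32.4% the XRE core. None of the 8 windows held the AP-1 or CRE letters. In Inhba the XRE core letters began at base -169, on the opposite strand and in capitals above, and again at base 42 after the start. The Inhbb window held none of the 4 motifs. The XRE core letters also stood in the windows of Tgfb1 (base -118), Tgfbr2 (-138), Smad3 (-205 and -194) and the first start of Tgfbr1 (-214 and -186). The SMAD box letters stood in those of Tgfb2 (-204) and the second start of Tgfbr1 (-203). A match is a description of letters, and the data do not measure binding.

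Libraries held 76150333 to 118537209 counts. Levels are given as CPM, counts scaled by each library's total and its TMM factor, and a gene is called where the edgeR quasi-likelihood test gave an adjusted p under 0.05 over all tested genes. Ahr counted over all its exons on the contralateral side was at 21.3 to 27.2 CPM in control mice and 19.5 to 21.0 CPM in cKO mice (log2 fold change -0.25, adjusted p 0.103), and at 30.2 to 38.1 and 28.9 to 36.8 CPM on the ipsilateral side (-0.11). Neuronal markers summed to between 11780 and 14120 CPM in all libraries, and no gene of the 10 marker lists was at 0 in any library. Summed fibroblast markers differed most among cKO contralateral libraries, at 1036 in mouse H61, 2316 in H64, 2028 in H95, 947.7 in H99 and 1736 CPM in H100, against 815.3 to 1375 CPM in control contralateral libraries. Summed muscle markers reached 1747 CPM in the cKO contralateral library of H100 and lay between 5.41 and 660.5 CPM in the groups other than cKO contralateral. In whole ganglia, fewer cells of a type and less RNA per cell cannot be told apart.

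One day after the cut, the activin subunit genes Inhba and Inhbb rose, the receptor genes Tgfbr1 and Tgfbr2 and the effector gene Smad2 rose by less, and the ligand gene Tgfb3 fell in control ganglia. In cKO ganglia Inhbb and Smad2 rose while Tgfb3 and the inhibitor gene Smad7 fell. With each mouse as a replicate block, which pairs its 2 libraries, Smad7 was called lower in control ganglia too (-0.34, adjusted p 0.0130) and Smad2 in control ganglia was no longer called (0.10, adjusted p 0.0543). Without the block 6 of the 10 genes were called in control mice, 5 higher and 1 lower, where 29.9% of all tested genes passed, 13.8% higher and 16.0% lower. Among the cKO mice 4 of the 10 were called, 2 higher and 2 lower, against 31.3% of all tested genes, 16.2% higher and 15.1% lower. The share called in cKO mice was close to this background. The median log2 fold change of the 10 genes was 0.182 in control and -0.0334 in cKO mice, beside -0.00472 and -0.0296 over all tested genes. The injury comparisons of the 2 genotypes do not share libraries.

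Marker lists of cell types were also compared between the sides, where 29.9% of all tested genes were called in control and 31.3% in cKO mice. In control mice satellite glia markers summed to 1622 to 1788 CPM on the contralateral and 1805 to 2042 CPM on the ipsilateral side, without overlap. Of these, 6 of 7 log2 fold changes were positive (median 0.122, 2 called). Endothelial markers summed to 96.02 to 137.3 CPM on the contralateral and 113.1 to 165.7 CPM on the ipsilateral side, with 7 of 7 log2 fold changes positive (median 0.397, 3 called). Macrophage markers summed to 99.97 to 184.8 and 115.2 to 219.8 CPM (12 of 12 positive, median 0.456, 1 called), and neutrophil markers to 44.98 to 158.3 and 43.79 to 214.4 CPM (7 of 7 positive, median 0.590, 0 called). Fibroblast markers summed to 815.3 to 1375 and 944.9 to 1530 CPM (8 of 8 positive, 0 called). In cKO mice 4 of 7 endothelial, 8 of 12 macrophage, 2 of 7 neutrophil and 1 of 8 fibroblast markers were positive. The only call among these 4 lists was 1 fibroblast marker, lower. Satellite glia markers there summed to 1592 to 1948 and 1746 to 1935 CPM (3 of 7 positive, 2 called higher). Of 16 neuronal markers 5 were called lower in each genotype. The part of the satellite glia, neuronal, endothelial, macrophage and neutrophil lists in the injury responses of the 10 genes was not tested.

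Inhba (ENSMUSG00000041324.15) encodes the subunit whose dimer is activin A. In control contralateral ganglia of mice H62, H63, H65, H96 and H97 it was at 2.90, 1.63, 1.74, 1.45 and 1.94 CPM, and in the ipsilateral ganglia of the same mice at 7.39, 5.84, 6.84, 6.26 and 6.91 CPM. Every injured-side library of a control mouse thus lay above every uninjured-side one. The rise was 3.44-fold (log2 fold change 1.78 ± 0.294 SE, 95% interval 1.16 to 2.40, edgeR adjusted p 1.32e-04, n = 5), and 5 of 5 mice were higher on the cut side, by 1.34 to 2.09 on the log2 scale.

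In cKO contralateral ganglia of H61, H64, H95, H99 and H100, Inhba was at 3.57, 4.36, 6.72, 1.53 and 6.83 CPM, and on the ipsilateral side at 5.48, 8.41, 7.28, 6.20 and 6.93 CPM. The uninjured side therefore spread widely, with H95 and H100 close to the injured level and H99 at the control level, while the injured side lay around the range of control mice. The log2 fold change was 0.58 ± 0.281 (adjusted p 0.134), and although 5 of 5 mice were higher on the cut side, their differences ran from 0.0213 in H100 to 2.00 in H99. With each mouse as a replicate block it was 0.71 (adjusted p 0.0539), and with mouse as a random effect in limma-voom it was called (0.75, adjusted p 0.0287), in a range of 0.00177 to 0.342 over the alternatives. The test of the difference between the genotypes' responses gave -1.21 ± 0.403 (unadjusted p 0.00804, adjusted p 0.485). The injury response of Inhba was thus not called different between the genotypes, and its 95% interval of -2.06 to -0.36 was not adjusted for the number of genes tested.

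**Figure D1:**
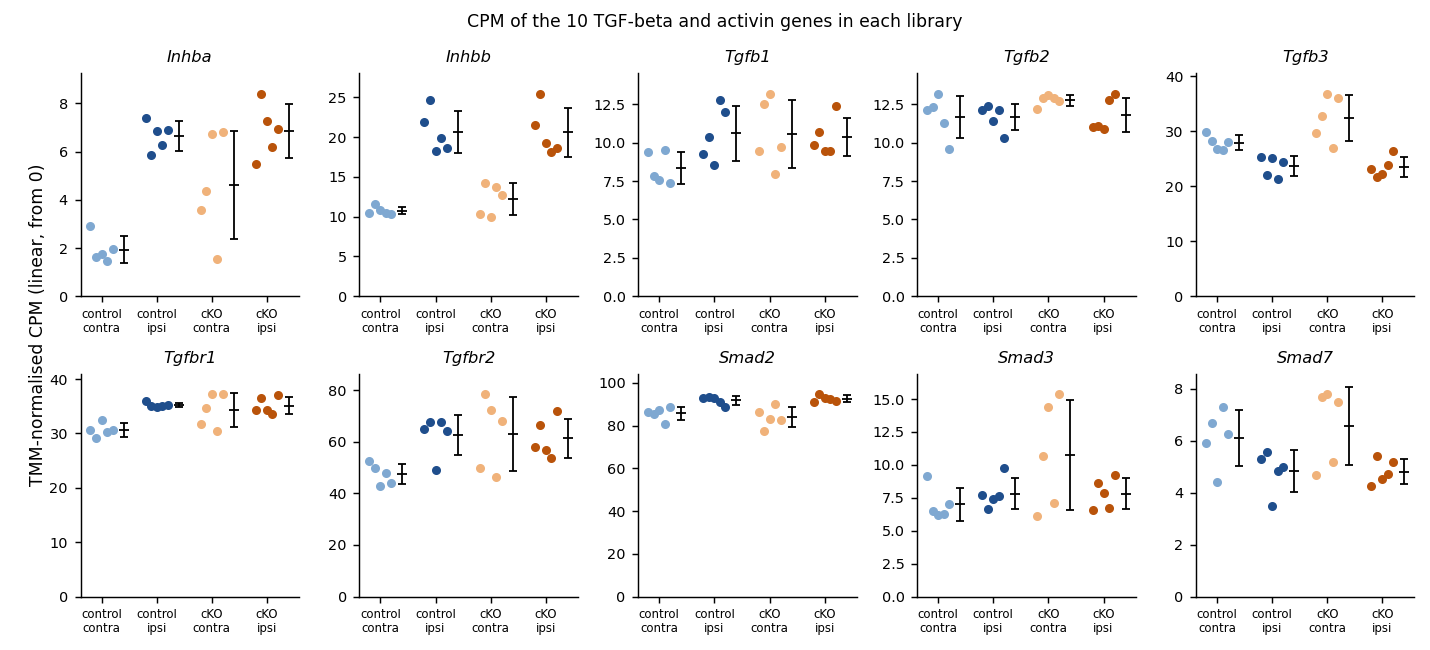
TMM-normalised CPM (linear axes from 0) of each of the 10 genes, 1 point per library in the 4 groups, with the mean and SD (n = 5) as bars beside the points. Inhba and Inhbb are higher in all control ipsilateral than in all control contralateral libraries, and the cKO contralateral points of Inhba run from 1.53 to 6.83 CPM.

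Inhbb (ENSMUSG00000037035.6), whose dimer is activin B, rose in both genotypes. In control mice, in the order above, it was at 10.5, 11.6, 10.9, 10.5 and 10.4 CPM on the contralateral and 21.9, 24.7, 18.3, 19.9 and 18.7 CPM on the ipsilateral side. In cKO mice it was at 10.3, 14.3, 10, 13.8 and 12.7 CPM and at 21.5, 25.5, 19.3, 18.1 and 18.6 CPM. The sides did not overlap in either genotype, and the 10 injured-side libraries of the genotypes covered nearly the same range. The log2 fold change was 0.94 ± 0.109 in control (adjusted p 1.336e-06) and 0.75 ± 0.109 in cKO mice (1.911e-05), and 10 of 10 mice were higher on the cut side. Both calls held under every alternative run. Shares between genes were taken on counts per kilobase of exon. Of the 2 activin subunit genes together, Inhba made up 10.6% ± 2.92 in control contralateral and 17.8% ± 2.56 in control ipsilateral libraries (SD, n = 5). In cKO mice its share was 19.9% ± 9.21 and 18.2% ± 2.26.

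The 3 TGF-beta ligand genes did not move together. Tgfb3 fell in both genotypes: control libraries held 29.9, 28.3, 26.8, 26.6 and 28.1 CPM on the contralateral and 25.4, 22.1, 25.1, 21.4 and 24.4 CPM on the ipsilateral side. In cKO mice the values were 29.7, 32.8, 36.9, 26.9 and 36.1 CPM and 23.2, 21.7, 22.3, 23.8 and 26.4 CPM. In each genotype the highest injured-side value was below the lowest uninjured-side value. The log2 fold change was -0.24 ± 0.0749 in control (adjusted p 0.0188) and -0.47 ± 0.0748 in cKO mice (5.181e-05), and 10 of 10 mice were lower on the cut side. The call in control mice was lost without H63 (-0.20, adjusted p 0.123), H96 (-0.21, 0.0731) or H97 (-0.23, 0.0699), in a range of 6.12e-04 to 0.123 over the alternatives, whereas that in cKO mice held throughout. The difference between the genotypes' responses was -0.23 (unadjusted p 0.0427, adjusted p 0.505). Exons of 2 genes on the opposite strand, Gm37804 and Gm48008, overlap 163 and 257 of the 3383 exon bases of Tgfb3, and as the strand setting of the counting is not given in the sources used here, some of its counts could be theirs.

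Tgfb1, the TGF-beta known for its roles in immune control and wound repair, was at 7.37 to 9.54 CPM in control contralateral and 8.57 to 12.8 CPM in control ipsilateral libraries, which overlapped. Its log2 fold change of 0.35 ± 0.136 in control mice was not called (adjusted p 0.0630, higher in 4 of 5 mice). It was called with DESeq2 (0.35, adjusted p 0.0298), with genes of at least 1 CPM (0.35, 0.0480), with only the libraries compared (0.36, 0.0363) and without H62 (0.43, 0.0440), H95 (0.36, 0.0450) or H99 (0.35, 0.0408), in a range of 0.0298 to 0.240. In cKO mice Tgfb1 stood at 7.97 to 13.2 CPM on the contralateral and 9.46 to 12.4 CPM on the ipsilateral side, a log2 fold change of -0.03 ± 0.135 (adjusted p 0.902). Tgfb2 lay between 9.56 and 13.2 CPM in all 20 libraries. Its log2 fold changes were -0.01 ± 0.0744 in control (95% interval -0.16 to 0.15) and -0.11 ± 0.0743 in cKO mice (-0.27 to 0.04), and neither was called. Gm29491, on the opposite strand, overlaps 124 of its 5791 exon bases. Of the counts per kilobase of exon of the 3 genes together, Tgfb3 made up 69.2% ± 2.18 in control contralateral and 62.9% ± 3.66 in control ipsilateral libraries. In cKO libraries its shares were 69.0% ± 1.90 and 62.9% ± 1.12.

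Tgfbr1 encodes the type I and Tgfbr2 the type II receptor for TGF-beta. In control mice Tgfbr1 was at 30.6, 29.1, 32.5, 30.2 and 30.7 CPM on the contralateral and 36.0, 35.1, 34.9, 35.0 and 35.3 CPM on the ipsilateral side, with no overlap. This small rise was called (log2 fold change 0.20 ± 0.0486, adjusted p 0.00268, higher in 5 of 5 mice) and kept its call under every alternative run. In cKO mice the contralateral libraries already held 31.8, 34.7, 37.2, 30.5 and 37.3 CPM, against 34.3, 36.5, 34.4, 33.5 and 37.0 CPM on the ipsilateral side. The log2 fold change there was 0.04 ± 0.0485 (adjusted p 0.631, higher in 3 of 5 mice), and the difference between genotypes was -0.17 (unadjusted p 0.0234, adjusted p 0.491).

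Tgfbr2 was at 52.7, 49.9, 42.9, 48.0 and 44.2 CPM in control contralateral and 64.9, 67.8, 48.9, 67.5 and 64 CPM in control ipsilateral libraries. The injured side of H65, at 48.9 CPM, lay within the uninjured range and apart from the other 4. The rise in control mice (log2 fold change 0.40 ± 0.135, adjusted p 0.0328, higher in 5 of 5 mice) was lost without H62 (0.42, adjusted p 0.0581), H63 (0.40, 0.0877), H96 (0.38, 0.102) or H97 (0.38, 0.107) and without a filter (0.41, 0.0664), in a range of 0.00407 to 0.107. In cKO mice Tgfbr2 was at 49.8, 78.6, 72.2, 46.3 and 68.2 CPM on the contralateral and 57.9, 66.4, 57.0, 53.6 and 72.1 CPM on the ipsilateral side. H64, H95 and H100 had the highest uninjured-side values, and also the highest summed fibroblast and macrophage markers of the cKO contralateral libraries. The log2 fold change was -0.04 ± 0.134 (adjusted p 0.874). With a covariate for the level of the fibroblast markers in each library, chosen after seeing the data, it turned to 0.23 and was called (adjusted p 0.0366, in a range of 0.0366 to 1.00 over the alternatives). The genotypes' responses differed by -0.43 (unadjusted p 0.0352, adjusted p 0.498).

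Smad2, a receptor-regulated SMAD, rose slightly in both genotypes. In control mice it was at 86.5, 85.4, 87.3, 80.9 and 88.7 CPM on the contralateral and 92.9, 93.4, 93.1, 91.2 and 88.6 CPM on the ipsilateral side, which overlapped through H97 alone. In cKO mice it was at 86.5, 77.5, 83.3, 90.1 and 82.5 CPM and at 91.1, 94.9, 93.1, 92.7 and 91.7 CPM, with no overlap. The log2 fold changes were 0.10 ± 0.0334 (adjusted p 0.0294, higher in 4 of 5 mice) and 0.14 ± 0.0334 (0.00232, 5 of 5), which are fold changes of 1.07 and 1.1. The call in control mice was lost with each mouse as a replicate block (0.10, adjusted p 0.0543) and without H62 (0.10, 0.0750), H63 (0.11, 0.0534) or H96 (0.09, 0.0782), in a range of 0.00467 to 0.0782.

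Smad3, the other receptor-regulated SMAD of the pathway, was at 9.16, 6.49, 6.17, 6.24 and 7.01 CPM in control contralateral and 7.69, 6.66, 7.40, 7.61 and 9.77 CPM in control ipsilateral libraries. In cKO mice it was at 6.10, 10.7, 14.4, 7.10 and 15.4 CPM and at 6.54, 8.64, 7.84, 6.71 and 9.24 CPM. The uninjured side of H95 and H100 stood above every other library of the 20, and H64 came next. Neither response was called: the log2 fold change was 0.16 ± 0.214 in control (adjusted p 0.641) and -0.46 ± 0.213 in cKO mice (0.110, higher in 1 of 5 mice). Without H61 the latter was called (-0.55, adjusted p 0.0475), in a range of 0.0475 to 0.748. Of the counts per kilobase of exon of Smad2 and Smad3, Smad2 made up 88.6% ± 1.70 in control contralateral and 88.1% ± 1.77 in control ipsilateral libraries. In cKO libraries it made up 83.3% ± 5.84 on the contralateral and 88.3% ± 1.54 on the ipsilateral side.

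Smad7, the inhibitory SMAD, was at 5.89, 6.66, 4.40, 7.30 and 6.27 CPM on the contralateral and 5.29, 5.56, 3.47, 4.82 and 4.97 CPM on the ipsilateral side of control mice. In cKO mice it was at 4.68, 7.69, 7.80, 5.16 and 7.47 CPM and at 4.26, 5.42, 4.51, 4.70 and 5.16 CPM. The groups overlapped, yet within each of the 10 mice the cut side was lower. In cKO mice the fall was called (log2 fold change -0.45 ± 0.156, adjusted p 0.0342), and in control mice it was not (-0.34 ± 0.156, adjusted p 0.115). The control value was called with each mouse as a replicate block (-0.34, adjusted p 0.0130) and with the fibroblast covariate (-0.49, 0.0139), in a range of 0.0130 to 0.350. The call in cKO mice was lost without H64 (-0.43, adjusted p 0.0864), H95 (-0.35, 0.169), H97 (-0.45, 0.0531) or H100 (-0.42, 0.0953), without a filter (-0.43, 0.0950) and with the fibroblast covariate (-0.24, 0.270), in a range of 0.00319 to 0.270.

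**Figure D2:**
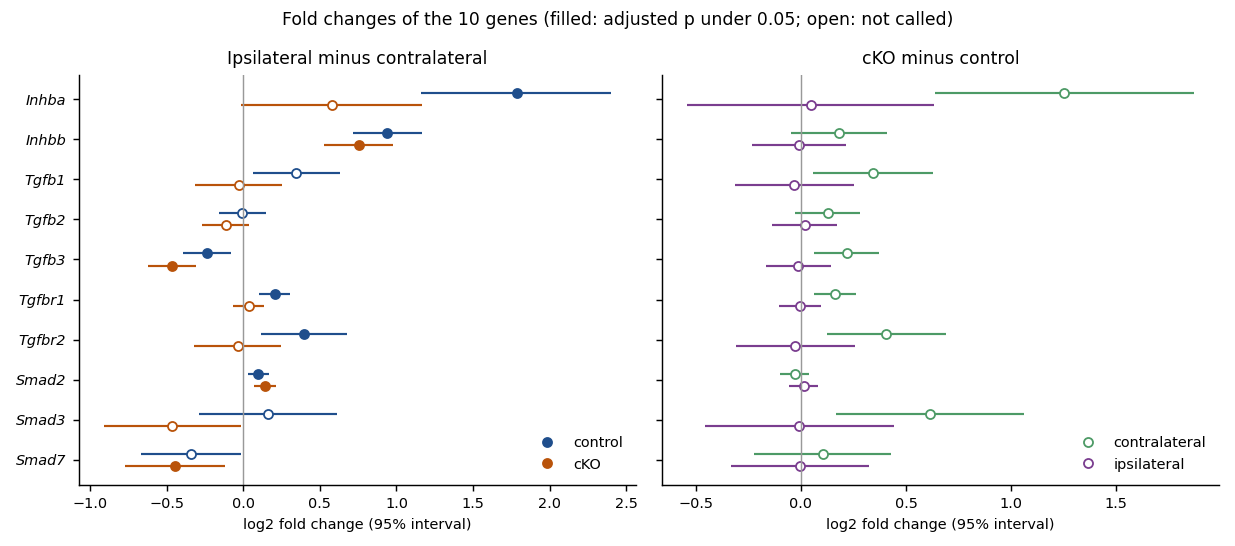
Log2 fold changes of the 10 genes from the edgeR fit with 95% intervals, for the cut side against the other side in each genotype (left) and for cKO against control on each side (right); filled points were called and open points were not. Inhbb, Tgfb3 and Smad2 are filled in both genotypes on the left, and no point is filled on the right.

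Levels can be compared between genes only per exon length. On that scale (mean CPM per kilobase of merged exons) Smad2 stood highest in control contralateral ganglia at 9.77 ± 0.337, followed by Tgfb3 at 8.26 ± 0.392, Tgfbr2 at 5.81 ± 0.493, Tgfbr1 at 4.69 ± 0.184 and Inhbb at 2.54 ± 0.118 (SD, n = 5). The ranges of these 5 genes over the libraries did not overlap. Tgfb2 (2.02), Tgfb1 (1.65), Smad7 (1.35) and Smad3 (1.27) followed with ranges that overlapped from neighbour to neighbour. Inhba was the lowest at 0.302 ± 0.0889 CPM per kilobase, below every library of the other 9 genes. In control ipsilateral ganglia Inhba was at 1.04 ± 0.0946, within the range of Smad7 (1.07 ± 0.178), and Inhbb at 4.87 ± 0.619 reached into the range of Tgfbr1 (5.40 ± 0.0620). Tgfbr2 (7.65 ± 0.959) and Tgfb3 (7 ± 0.530) then overlapped. In cKO contralateral ganglia Inhba was at 0.720 ± 0.350 CPM per kilobase, and in cKO ipsilateral ganglia at 1.07 ± 0.174.

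Other genes of the pathway were taken from a list of 73 in 5 classes, of which 67 were tested; Inhbc, Inhbe, Nodal, Lefty2, Tdgf1 and Foxh1 had too few counts. In control mice 22 rose and 8 fell, where 13.8% of all tested genes were higher and 16.0% lower. In cKO mice 17 rose and 5 fell, where 16.2% were higher and 15.1% lower. The class counts that follow have the same backgrounds. None of the 67 was called between genotypes on either side or in the difference of responses by edgeR, where 22, 0 and 10 of them had an unadjusted p under 0.05, against 17.5%, 2.36% and 9.80% of all tested genes. The median log2 fold change of the 67 was 0.196 in control and -0.000739 in cKO mice.

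Among ligands and their traps, the activin trap gene Fst (follistatin) rose by the most: from 4.10, 2.99, 2.84, 3.02 and 2.79 CPM to 17.7, 21.0, 20.3, 16.0 and 16.3 CPM in control mice, and from 2.67, 2.98, 2.30, 2.71 and 2.74 CPM to 20.1, 20.9, 20.6, 16.7 and 16.8 CPM in cKO mice. The sides did not overlap in either genotype, and the injured-side levels of the genotypes lay within much the same range. The log2 fold changes were 2.53 ± 0.111 (adjusted p 5.190e-13) and 2.83 ± 0.112 (1.131e-13). The other trap of the family, Fstl3, was not called (-0.09 and -0.13). Mstn, the ligand myostatin, a product of muscle, rose (1.95 and 1.5). The cKO contralateral library of H100, which held the 1747 CPM of muscle markers, had 1.85 CPM of Mstn against 0.639 to 0.91 CPM in the other 4, and the response of H100 was 0.43 against 1.54 to 2.03; without H100 the cKO value was 1.91. Gdf1 fell (-0.59 and -0.56), as did Inha, whose product pairs with the activin subunits to make inhibins (-0.41 ± 0.122, adjusted p 0.0148; -0.33 ± 0.122, adjusted p 0.0445). The call of Inha was lost in control mice without H96 (-0.31) or H97 (-0.32) and under the fibroblast covariate (-0.33), and in cKO mice without H61, H62, H64, H65, H95 or H100 (-0.33 to -0.30), without a filter (-0.31), with only the libraries compared (-0.31) and with a covariate for the 2 ranges of mouse numbers (-0.33). In all, 1 of 6 tested ligands rose and 2 fell in each genotype. Of 16 genes for traps, storage and activation, 3 rose and 1 fell in each; the integrin gene Itgav, whose product helps to free TGF-beta from its latent form, had log2 fold changes of 0.48 and 0.32, Itgb8 0.26 and 0.24, and Itgb6 -0.58 and -0.44. The cKO calls of these 3 integrin genes were each lost without H61, H64 or H100, and those of Itgav and Itgb6 also without H99, at 0.28 to 0.32 for Itgav, -0.44 to -0.39 for Itgb6 and 0.20 to 0.24 for Itgb8. The control call of Itgb8 was lost without H62 (0.18) or H63 (0.245), and without a filter the calls of Itgb8 in both genotypes (0.27 and 0.26) and of Itgav in cKO mice (0.34) were lost. The fibroblast covariate also ended the cKO call of Itgb8 (0.18).

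Among receptors, 2 genes for type I receptors rose in both genotypes. Acvr1c, which encodes the type I receptor ALK7, rose from 0.609 ± 0.133 to 1.78 ± 0.0990 CPM in control mice (log2 fold change 1.55 ± 0.193, adjusted p 2.543e-06) and from 0.544 ± 0.140 to 1.95 ± 0.577 CPM in cKO mice (1.84 ± 0.196, 2.643e-07). Acvr1, for the type I receptor ALK2, rose from 21.0 ± 1.19 to 39.1 ± 1.82 CPM in control mice (0.90 ± 0.0455) and from 21.5 ± 0.715 to 41.0 ± 2.40 CPM in cKO mice (0.93 ± 0.0456), with no overlap in either. Acvr1b, for the main activin type I receptor ALK4, fell slightly in control mice (-0.17 ± 0.0496, adjusted p 0.0129) and was not called in cKO mice (-0.09); the control call was lost without H96 (-0.14) or H97 (-0.12), and with the fibroblast covariate the cKO value was called (-0.16, adjusted p 0.00505, in a range of 0.00505 to 0.455). The activin type II receptor genes Acvr2a (0.06 and 0.06) and Acvr2b (0.09 and 0.04) and the co-receptor gene Tgfbr3 (0.19 and 0.00) were not called. Bambi, which encodes a receptor-like inhibitor, fell (-0.58 ± 0.103 and -0.73 ± 0.103). In this class 4 of 10 rose and 2 fell in control mice, and 2 rose and 1 fell in cKO mice.

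**Figure D3:**
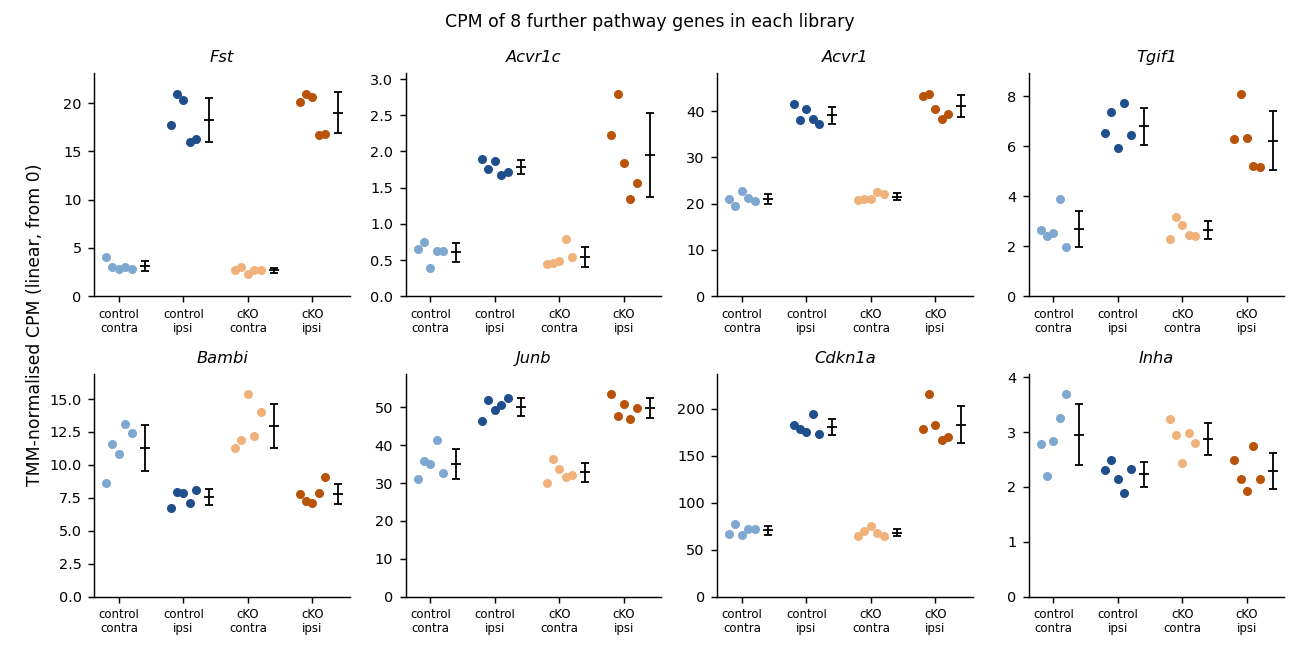
TMM-normalised CPM (linear axes from 0) of 8 further pathway genes, 1 point per library in the 4 groups, with the mean and SD (n = 5). Fst, Acvr1c, Acvr1, Tgif1, Junb and Cdkn1a are higher and Bambi is lower in the ipsilateral groups of both genotypes; Inha is lower on average, with overlapping groups.

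Of 17 tested SMADs and regulators, 8 rose and 3 fell in control mice, and 6 rose and 1 fell in cKO mice. Tgif1, a repressor that acts with SMADs, rose by 1.34 ± 0.153 and 1.24 ± 0.154, and Smad4, the shared partner of SMAD2 and SMAD3, by 0.20 ± 0.0353 and 0.28 ± 0.0353. Skil, a SMAD corepressor, rose in control mice (0.44 ± 0.0921, adjusted p 9.429e-04) and was not called in cKO mice (0.22 ± 0.0918, adjusted p 0.0782); with each mouse as a replicate block the cKO value was called (0.22, adjusted p 0.00980), in a range of 0.00779 to 0.208. Pmepa1, an inhibitor induced by the pathway, rose in control mice (0.29 ± 0.0817, adjusted p 0.0105) and had 0.00 ± 0.0816 in cKO mice. Zfyve9, which encodes a scaffold that brings SMADs to the receptor, fell (-0.20 and -0.14), the latter call being lost without H61 (-0.12), without a filter (-0.13) and with only the libraries compared (-0.12). Nedd4l, a ubiquitin ligase, fell in control mice (-0.21), a call lost without H97 (-0.17), and had 0.02 in cKO mice.

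Of 18 listed target genes 6 rose and none fell in control mice, and 5 rose and none fell in cKO mice by edgeR. Of all tested genes 13.8% and 16.2% were called higher, and 29.9% and 31.3% were called in either direction. An unadjusted p under 0.05 was found for 7 and 9 of the 18, and for 38.6% and 40.6% of all tested genes. The cell cycle inhibitor gene Cdkn1a (1.36 and 1.42), the matrix gene Postn (0.64 and 0.55) and the transcription factor gene Junb (0.51 and 0.60) rose in both genotypes, and Tgfbi was not called (0.31 and 0.09). With the fibroblast covariate the cKO value of Tgfbi was called (0.44, adjusted p 0.00346, in a range of 0.00346 to 0.931), and Cdkn1a, Postn and Junb kept their calls in both genotypes. Several of these genes are also induced by other signals, so their counts are not a measure of TGF-beta signalling alone. The log2 fold change was positive for 18 of 18 targets in control and 8 of 18 in cKO mice, with medians of 0.392 and -0.142. The fibroblast marker list, 4 of whose 8 genes (Col1a1, Col1a2, Col3a1 and Dcn) are also in the pathway lists, had positive values for 8 of 8 genes in control (median 0.340, 0 called) and for 1 of 8 in cKO mice (median -0.650, 1 called lower). Its part in the counts and medians of the whole target list was not tested.

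**Figure D4:**
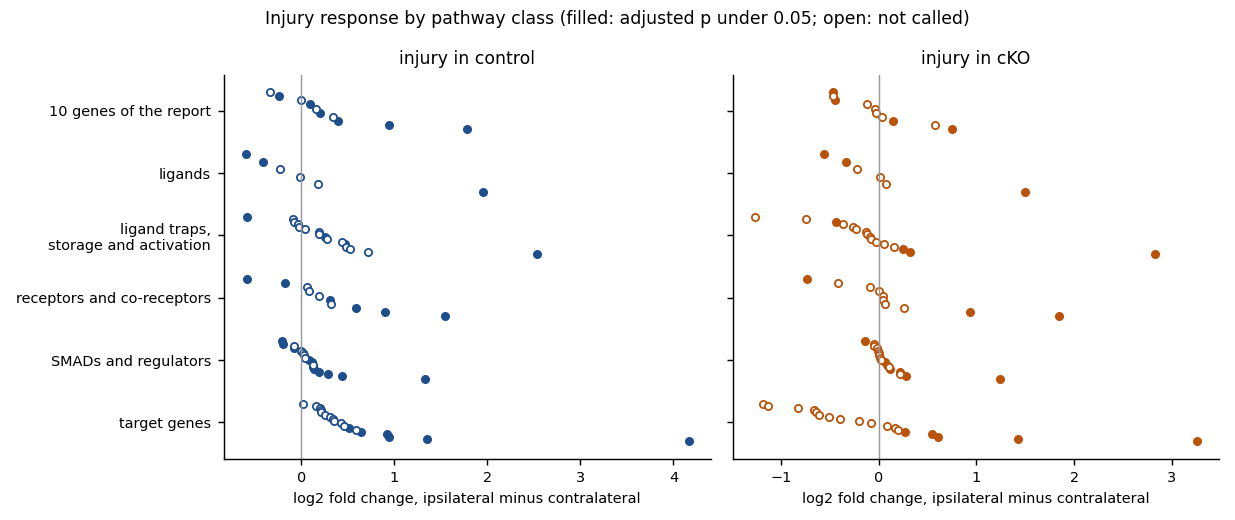
Log2 fold changes of the cut side against the other side in control (left) and cKO mice (right) for the 10 genes and the 5 classes of further pathway genes, 1 point per tested gene; filled points were called and open points were not. All 18 target genes lie above 0 on the left, and 10 of them lie below 0 on the right.

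Between genotypes none of the 10 genes was called by edgeR on either side. On the contralateral side 0.0735% of all tested genes were called (21 genes), 9 of the 10 had a positive log2 fold change with a median of 0.198 (-0.0130 over all tested genes), and 6 had an unadjusted p under 0.05, as had 17.5% of all tested genes. Inhba had the largest difference: 1.93 ± 0.568 CPM in control mice against 4.60 ± 2.23 CPM in cKO mice (log2 fold change 1.25 ± 0.293, 95% interval 0.64 to 1.87, unadjusted p 4.880e-04, adjusted p 0.0946, higher in 4 of 5 cKO libraries than in every control library). Smad3 (0.62 ± 0.213, adjusted p 0.156), Tgfbr2 (0.41 ± 0.135, 0.144), Tgfb1 (0.34 ± 0.136, 0.203), Tgfb3 (0.22 ± 0.0747, 0.150) and Tgfbr1 (0.16 ± 0.0486, 0.119) were the other 5. The values for Inhbb (0.18), Tgfb2 (0.13), Smad7 (0.10) and Smad2 (-0.03) had an unadjusted p above 0.05. With DESeq2, which called 3.64% of all genes, 4 of the 10 were called: Inhba (1.26, adjusted p 0.00407), Tgfbr1 (0.17, 0.0304), Tgfbr2 (0.41, 0.0302) and Smad3 (0.62, 0.0403). Without H99 edgeR called 11.5% of all genes and 6 of the 10: Inhba (1.48, 0.00205), Tgfb1 (0.43, 0.0426), Tgfb3 (0.28, 0.0158), Tgfbr1 (0.20, 0.00820), Tgfbr2 (0.50, 0.0184) and Smad3 (0.73, 0.0365). Over all alternatives the adjusted p of Inhba ran from 0.00205 to 0.999.

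In 5 of the 10 marker lists every gene had a positive log2 fold change on this side. Endothelial markers summed to 96.02 to 137.3 CPM in control and 111.7 to 165.2 CPM in cKO contralateral libraries, with 7 of 7 positive (median 0.166, 0 called). For muscle 7 of 7 markers were positive too (median 1.25, 0 called), but H100 alone held a sum of 1747 CPM. The median muscle sum was 79.77 CPM in control and only 23.05 CPM in cKO contralateral libraries. Neutrophil markers summed to 44.98 to 158.3 CPM in control and 26.38 to 223.7 CPM in cKO contralateral libraries, with 7 of 7 log2 fold changes positive (median 0.748, 0 called). Macrophage markers summed to 99.97 to 184.8 and 98.59 to 259.2 CPM, with 12 of 12 positive (median 0.284, 0 called), and the part of these 4 lists in the values was not tested. All 8 fibroblast markers had a positive log2 fold change for cKO against control on the contralateral side (median 0.887, 0 called). The mice with the highest sums, H64, H95 and H100, had the highest uninjured-side values of Inhba, Tgfbr1, Tgfbr2, Smad3, Tgfb3 and Smad7 in the cKO group. The same mice also had the highest macrophage sums of that group, at 259.2, 185.7 and 173.7 CPM, against 126.1 CPM in H61 and 98.59 CPM in H99. With the fibroblast score as a covariate, an alternative chosen after seeing the data, the contralateral difference was 0.38 for Inhba (adjusted p 0.999), -0.02 for Tgfb1, -0.05 for Tgfbr2 and -0.01 for Smad3, and no member was called. In the same fit the injury response of Inhba in cKO mice was 1.13 (adjusted p 0.00177), and the difference between the genotypes' responses was -0.35. Col1a1, Col1a2, Col3a1 and Dcn, which enter the score, are also in the pathway lists. The score is thus not independent of the pathway, and this fit cannot separate fibroblast content from pathway activity.

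**Figure D5:**
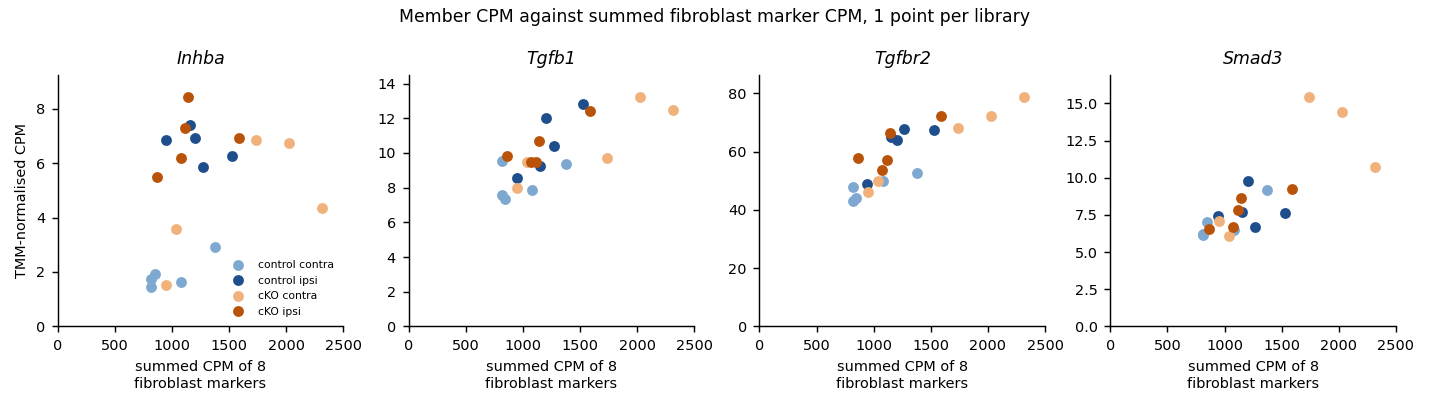
TMM-normalised CPM of Inhba, Tgfb1, Tgfbr2 and Smad3 against the summed CPM of 8 fibroblast markers, both axes linear, 1 point per library coloured by group. The 3 cKO contralateral libraries with marker sums of 1736, 2028 and 2316 CPM hold the highest Smad3 values, and all control ipsilateral points of Inhba lie above all control contralateral points.

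On the ipsilateral side 0.00700% of all tested genes were called (2 genes), and the 10 genes had log2 fold changes of only -0.03 to 0.05, with 0 unadjusted p under 0.05 and 0 calls by DESeq2. Over all alternatives these 10 differences stayed between -0.10 and 0.12. A test that misses its threshold does not show that the genotypes are alike: for Inhba the 95% interval of the difference ran from -0.54 to 0.63, and for Smad2 from -0.06 to 0.08. The difference between the genotypes' responses was called for 0% of all tested genes, of which 2799 had an unadjusted p under 0.05. Of the 10 genes, 9 had a smaller or more negative response in cKO mice, and 4 had an unadjusted p under 0.05, namely Inhba, Tgfb3, Tgfbr1 and Tgfbr2. The contralateral libraries behind this count are those of the contralateral genotype comparison, where 9 of the 10 were positive, so the 2 counts are not independent. DESeq2 called 11 genes in this test and none of the 10.

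For the 3 members whose group means ranged the most, Inhba, Inhbb and Smad3, the genes of most similar pattern were sought among 13111 genes by the root mean square difference of log2 CPM, each gene centred on its own mean over the 20 libraries. For Inhba these were Il17ra (0.336), Trim47 (0.409) and Flnc (0.414). For Inhbb they were Plekho2 (0.153), Adgrd1 (0.154) and Gm13889 (0.156), and for Smad3 they were Wnt6 (0.143), Afap1l1 (0.145) and Ccnd3 (0.145). The values of Inhba were the largest, but this measure grows with a gene's own range. The group means of Inhba spanned 1.84 in log2 CPM, against 0.932 for Inhbb and 0.535 for Smad3. The values therefore do not rank the members by how shared their patterns were. All genes compared were counted in the same 20 libraries and share their depth and the injury, so likeness is a description of these libraries.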

How the data were processed

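Poly(A) RNA of 20 libraries (10 mice, ipsilateral and contralateral ganglia) was read as 2 × 150 bp pairs from a stranded kit, per the labels' protocols. The values used are raw exon counts per gene as the authors deposited them. The submitters' processing notes name HISAT2, Picard and the builds mm10 and mm39; the counting program, annotation release and strand setting are not given in the sources used here. A deposited FPKM table was not used.

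Of 78258 identifiers, 51487 had a symbol. Genes were kept with edgeR's filterByExpr (minimum count 10, minimum total 15), normalised by TMM and tested in edgeR 4.0.16 (R 4.3.3) by its quasi-likelihood F-test (robust), all 4 groups being fitted together, with Benjamini-Hochberg adjustment over 28564 genes and calls under 0.05. Values per mouse are log2 CPM with a prior count of 2. Fold changes are edgeR's, with the SE from the F statistic. Exon lengths were merged from GENCODE M21 on GRCm38. The alternatives were DESeq2 1.42.0, RLE factors, other filters, only the libraries compared, the range of mouse numbers (61 to 65 against 95 to 100) as a covariate, each mouse as a replicate block (fixed, or random in limma-voom 3.58.1), each mouse left out, and a fibroblast score added later. The edgeR steps were tested on simulated data.

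No 2 libraries of a group agreed within sampling noise (chi-square per degree of freedom from 5.31 to 58.3). P-values of the main fit rest on the spread between the libraries of a group, each from a different mouse. They do not use the pairing of the 2 sides. The 2 libraries of a mouse are paired by animal; their deviations from the group means correlated with a median of 0.3085 (-0.16 to 0.668, over 0.1 in 8 of 10 mice). One title shortens H61, which the library name gives in full.

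The 10 genes, the pathway and marker lists and the tests were chosen with earlier results of these data known. Named genes were the 10, fixed partners (Inha, Fst, Fstl3, Acvr1b, Acvr1c, Acvr2a, Acvr2b, Tgfbr3, Smad4, Skil, Pmepa1, Tgfbi), and in each class of the pathway list the 2 highest and 2 lowest responses in control mice among called genes of at least 1 mean CPM; 1 gene that this rule names is not reported here. Likeness used genes of at least 5 mean CPM.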

Additional observations from a re-analysis of the deposited data

Results flagged for a closer look

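Of 60 groups of 5 values, 2 held a library standing apart under Dixon's test (gap to the nearest library over the whole range, limit 0.71), and about 3 would do so by chance. The control ipsilateral library of H65 was low for Tgfbr2, at 48.9 CPM (ratio 0.799). The control contralateral library of H62 was high for Smad3, at 9.16 CPM (ratio 0.719), and it also held the highest summed fibroblast markers of its group, 1375 CPM. The part of those markers in this value was not tested.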

How the results depend on the processing

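Over 86 results, alternatives with all mice gave 760 values, of which 707 kept direction and side of the threshold, 14 lost and 16 gained a call and 23 changed sign; leaving out each mouse gave 860, of which 794, 39, 10 and 17 did so. The count of the 10 genes called in control mice was 6 (3 to 7 with a mouse left out, 3 without H63 or H96), and in cKO mice 3 to 5. On the contralateral side it was 0, 4 with DESeq2, and 0 to 6 with a mouse left out (6 without H99). With each mouse as a fixed replicate block the counts were 6 in control and 4 in cKO mice; Smad2 lost and Smad7 gained a call in control mice, Skil gained one in cKO mice, and calls of the other named genes stayed as they were. With mouse random they were 6 and 5, and Inhba and Skil gained a call in cKO mice.

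Among values that changed sign, the fibroblast covariate gave Tgfb1 0.18 (cKO injury) and -0.0209 (contralateral), Tgfbr2 0.23 (cKO injury, now called), -0.0484 (contralateral) and 0.0145 (difference of responses), Smad2 0.0305, Smad3 -0.00791 and Smad7 -0.261 (contralateral), Smad3 -0.0752 (control injury), and in cKO injury Fstl3 0.0219, Acvr2b -0.0272, Nedd4l -0.0535 and Pmepa1 0.142. Tgfb2 in control injury was 0.00264 with DESeq2, 0.00395 with RLE and without a filter, 0.00199 at 1 CPM, 0.000249 with the block and 0.0109 with only the libraries compared. Pmepa1 in cKO injury was 0.0132 without a filter, 0.0102 and 0.0110 with the blocks and 0.0143 with only the libraries compared. With a mouse left out, Tgfb2 in control injury ran from -0.0222 to 0.0623, and in cKO injury Tgfb1 ran from -0.129 to 0.0953, Tgfbr2 from -0.0901 to 0.0427, Acvr2b from -0.0685 to 0.107, Tgfbr3 from -0.0359 to 0.101, Nedd4l from -0.0154 to 0.0851, Pmepa1 from -0.0545 to 0.0647 and Tgfbi from -0.0339 to 0.261.

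The cause of these changes was not tested. Members at a few CPM rest on at least 127 counts per library.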
